A study of Saccharomyces cerevisiae with 4 samples.

Results

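The 10 genes described here include those of the iron-holding mannoproteins of the budding yeast cell wall, FIT1 (YDR534C), FIT2 (YOR382W) and FIT3 (YOR383C). The 4 transporters of iron bound to siderophores are encoded by ARN1 (YHL040C), ARN2 (YHL047C), SIT1 (YEL065W) and ENB1 (YOL158C). FET3 (YMR058W), FTR1 (YER145C) and FET4 (YMR319C) encode 3 proteins that serve the uptake of free iron at the plasma membrane. These 10 genes were picked by gene name, with earlier results of these data known. They make up 10 of the 6207 open reading frame (ORF) rows of the table. All 10 had a value on each of 4 arrays and entered the test, as did 4543 ORFs in all. The samples were wild-type Saccharomyces cerevisiae grown in the rich medium YEPD at 24 °C. The treated part of each culture received Zymolyase 100T, a mix of enzymes that breaks down wall glucan, at 5 units/ml for 3 h, and the untreated part of the same culture grew on without it. RNA of 2 cultures was compared on 4 two-colour arrays, with treated RNA labelled with Cy3 on arrays 1 and 3 and with Cy5 on arrays 2 and 4. The labels name neither the strain background of the wild type nor the arrays that share a culture.

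Yeast short of iron switches on a set of uptake genes through the transcription factors Aft1 and Aft2. Siderophores are small iron chelators made by other microbes. Budding yeast makes none itself but takes up their iron: the Fit proteins, anchored in the outer wall, help to hold siderophore-bound iron, and the Arn family carries the complexes into the cell. Free iron takes another route, in which surface reductases reduce it, the copper-dependent oxidase Fet3 oxidises it again and the permease Ftr1 imports it, while Fet4 is a low-affinity carrier of ferrous iron and other metals.

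Values are log2 ratios between treated and untreated RNA, with signs turned for the dye swap on every array. Neither the base of the deposited logarithms nor the channel in the numerator is stated. The base was taken as 2, and the sign was set, after the values were seen, so that SLT2 is positive. SLT2 encodes the kinase of the cell wall integrity pathway and had 2.14, 2.39, 2.18 and 2.31 on arrays 1 to 4. A negative value therefore lies opposite to SLT2, and nothing here says which side was the higher in treated cells. As background, wall damage is known to induce SLT2; if it did so here, negative values would be lower after Zymolyase. Means are given ± SD over 4 arrays, from 2 cultures. Past the test means an adjusted p under 0.05 in limma. The larger p was taken of the 2 ways in which dye-swapped arrays can be paired into cultures. With an array left out, no such pairing is possible, so that fit counted each remaining array as its own sample beside a dye effect. Each mean and pass given below with an array left out comes from that different test. The mean it gives, called dye-balanced here, weighs both dye orientations equally and is not the plain mean of the remaining arrays. Precision is limited by having 4 arrays, and without intensities the signal over background of a ratio is unknown. Fewer transcripts per cell and fewer intact cells expressing a gene cannot be told apart in such bulk RNA.

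Of the 10 iron genes, 9 had a mean opposite to SLT2, against 56.7% of all tested ORFs, and 7 were below 0 on each array, against 15.3%. Past the test were 2, FIT2 (-1.23 ± 0.70) and ENB1 (-1.03 ± 0.38), both opposite to SLT2, where 1.39% of tested ORFs lay. On the side of SLT2 there were 0 of the 10, against 4.56% of tested ORFs. At an unadjusted p under 0.05 there were 7, against 19.3%. The median of the 10 means was -0.64 and that of all tested ORFs -0.03. FIT2 and ENB1 were also the only iron genes with a mean at or below -1, a 2-fold difference, which 0.198% of tested ORFs reached. By mean, 7 genes (FIT1, FIT2, FIT3, ARN2, ENB1, FET3 and FTR1) were in the lowest 5% of ORFs, which held 5.02% of those tested.

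**Figure D1:**
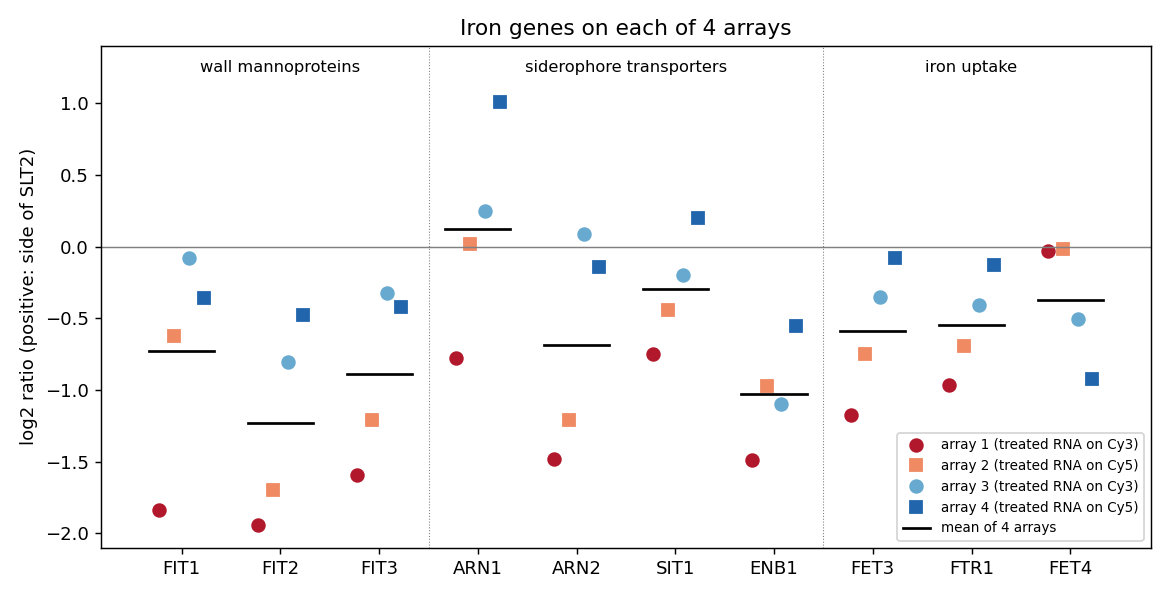
Log2 ratio of each of the 10 iron genes (x axis) on each of 4 arrays (y axis; positive values lie on the side of SLT2), with circles for treated RNA on Cy3, squares for treated RNA on Cy5 and a bar for the mean. Array 1 was the lowest for 9 genes, against 24.5% of tested ORFs, FET4 being the exception, and ARN1 alone reached above 1, on array 4.

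The wall mannoprotein genes were the lowest of the groups, with a median of -0.89. FIT2 had -1.94, -1.70, -0.80 and -0.48 on arrays 1 to 4. It was lowest on arrays 1 and 2, and its mean of -1.23 is a 2.34-fold difference (adjusted p = 0.0207 in limma). Only 0.0880% of tested ORFs had a mean as low. The call of FIT2 held in 9 of 16 other settings and ended in 7. FIT3, the gene next to FIT2 in the chromosome's order, had -1.59, -1.21, -0.32 and -0.42. It lay opposite to SLT2 on every array, again most on arrays 1 and 2, and its mean of -0.89 ± 0.62 did not pass (adjusted p = 0.0538 in limma). Its dye-balanced mean was -1.20 without array 3 and -1.08 without array 4. It was -0.57 without array 1, a move of over 1.5 times, and -0.69 without array 2.

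FIT1 had -1.84, -0.62, -0.08 and -0.36 on arrays 1 to 4. Array 1 supplied most of its mean of -0.73 ± 0.77, and the gene did not pass (adjusted p = 0.0968 in limma). On array 3 it sat in the middle of all ORFs, 45.7% of which were as low. For FIT1, unlike FIT2 and FIT3, array 2 lay closer to arrays 3 and 4 than to array 1. Its dye-balanced mean moved by over 1.5 times both ways, to -0.29 without array 1 and to -1.16 without array 3. The call of FIT2 ended without array 1 (-0.95, adjusted p = 0.125 in limma) and without array 3 (-1.51, adjusted p = 0.0622), and also with arrays centred on their medians (adjusted p = 0.149).

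The siderophore transporters differed most among themselves, with means that ran from -1.03 to 0.12. ENB1, which encodes the carrier of the bacterial siderophore enterobactin, had -1.49, -0.97, -1.10 and -0.55 on arrays 1 to 4. All arrays lay clearly opposite to SLT2, and ENB1 had the smallest SD of the siderophore transporters and the lowest adjusted p of the 10 genes (0.00338 in limma). It was the gene least dependent on any array, and remained past the test in 15 of 16 other settings; the exception was centring the arrays (adjusted p = 0.0515 in limma).

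ARN2, the gene of the transporter for the fungal siderophore triacetylfusarinine, had -1.48, -1.21, 0.09 and -0.14 on arrays 1 to 4. Arrays 1 and 2 thus carried the ratio, and the mean of -0.69 ± 0.77 did not pass (adjusted p = 0.192 in limma). Without array 1 the ARN2 mean was -0.29 and without array 3 -1.08, neither past the test. SIT1, which encodes the ferrioxamine transporter, had -0.75, -0.44, -0.20 and 0.20. Array 4 alone lay on the side of SLT2, and the mean was -0.30 ± 0.40 (adjusted p = 0.367 in limma), or from -0.46 to -0.13 with an array left out. ARN1, whose product carries ferrichrome-type siderophores, had -0.78, 0.02, 0.25 and 1.01. It was the only iron gene with a positive mean, 0.12 ± 0.74 (adjusted p = 0.822 in limma). Its 4 values straddle 0. The dye-balanced mean, not the plain mean of the remaining arrays, turned to -0.13 without array 3 and to -0.12 without array 4. It was in the lowest 5% of ORFs on array 1 and in the highest 5% on array 4.

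The oxidase and permease of reductive uptake, which work as a complex, had nearly equal values. FET3 had -1.17, -0.75, -0.35 and -0.08 on arrays 1 to 4. FTR1 had -0.96, -0.69, -0.41 and -0.13. Both lay opposite to SLT2 on every array, in the same order of arrays, which FIT2, SIT1 and ARN1 shared. Their means were -0.59 ± 0.48 for FET3 (adjusted p = 0.104 in limma) and -0.55 ± 0.36 for FTR1 (adjusted p = 0.0828), neither past the test. Without array 4 the dye-balanced means were -0.76 for FET3 and -0.69 for FTR1. Without array 1 they were -0.38 for FET3 and -0.41 for FTR1, and without array 2 -0.42 and -0.41. FET4, the low-affinity carrier gene, had -0.03, -0.02, -0.51 and -0.93. Its pattern ran the other way, near 0 on arrays 1 and 2 and low on arrays 3 and 4, and its mean of -0.37 ± 0.43 did not pass (adjusted p = 0.288 in limma). With an array left out, the FET4 mean ran from -0.60 to -0.14.

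A missed threshold does not show that a gene was unchanged. With arrays 1 and 2 as one culture and arrays 3 and 4 as the other, limma's 95% interval, not adjusted for the number of ORFs, ran from -1.22 to -0.23 for FIT1. It ran from -1.39 to -0.39 for FIT3, from -1.28 to -0.09 for ARN2, from -0.995 to -0.18 for FET3 and from -0.90 to -0.19 for FTR1. These intervals lie below 0. Those of ARN1 (-0.37 to 0.62), SIT1 (-0.66 to 0.07) and FET4 (-0.76 to 0.02) include 0. limma also draws on the variance of all tested ORFs, so no interval rests on a gene's own 2 pair means alone. Both pair means lay outside the interval for FIT1, FIT3, ARN1 and ARN2 (for ARN2 -1.34 and -0.03). For SIT1, FET3, FTR1 and FET4 both lay inside it.

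Arrays 1 and 2 were next set against arrays 3 and 4, since each pair holds both dye orientations. For 9 of the 10 genes the mean of arrays 1 and 2 was the lower, against 35.9% of tested ORFs. For 8 genes both values of arrays 1 and 2 were below both of arrays 3 and 4, which held for 12.3% of tested ORFs. ENB1 overlapped between the pairs. FET4 did not overlap either but had arrays 1 and 2 higher, as 18.4% of tested ORFs did. The median of the 10 genes was -1.09 over arrays 1 and 2 and -0.24 over arrays 3 and 4.

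Gene by gene, FIT2 averaged -1.82 on arrays 1 and 2 and -0.64 on arrays 3 and 4, a difference of -1.18. ARN2 averaged -1.34 on the first pair and -0.03 on the second, the largest difference of the 10 (-1.32). These genes thus kept a clear ratio on the second pair in one case and almost none in the other. FIT3 averaged -1.40 and -0.37 on the first and second pair, FIT1 -1.23 and -0.22, and ARN1 -0.38 and 0.63. All 3 differed between the pairs by about the same amount, from -1.03 to -1.01, although only ARN1 changed sign.

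FET3 averaged -0.96 on arrays 1 and 2 and -0.21 on arrays 3 and 4, FTR1 -0.83 and -0.27, and SIT1 -0.59 and 0.00. ENB1 had the smallest difference of the 10, with -1.23 on arrays 1 and 2 and -0.83 on arrays 3 and 4. FET4 averaged -0.02 on the first pair and -0.72 on the second, and 99.7% of tested ORFs had a difference as low or lower. Of the 10 genes, 6 (FIT1, FIT2, FIT3, ARN1, ARN2 and FET3) were in the lowest 5% of ORFs by this difference, which held 5.02% of tested ORFs. An exact permutation test of 2 arrays against 2 cannot give a two-sided p below 0.333, so none was run, and whether these pairs are the cultures was not tested.

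**Figure D2:**
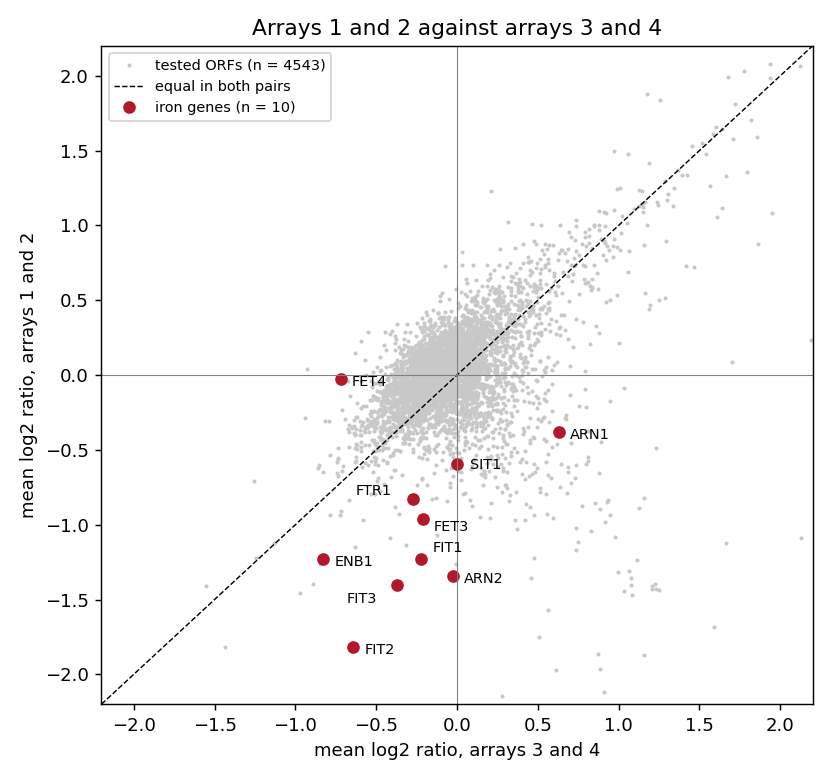
Mean log2 ratio over arrays 1 and 2 (y axis) against that over arrays 3 and 4 (x axis) for the 10 iron genes (red) and all tested ORFs (grey); 19 ORFs fall outside the axes, and the dashed line marks equal values. FIT2, FIT3, FIT1, ARN2, FET3, FTR1, SIT1, ARN1 and ENB1 lie below the line and FET4 above it.

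The order of the genes was similar within each pair of arrays. Across the 10 genes, which are not independent replicates, Pearson's r was 0.82 between arrays 1 and 2 and 0.67 between arrays 3 and 4. It lay between 0.12 and 0.42 for arrays of different pairs. Over all tested ORFs arrays 2 and 4 were instead the most alike (r = 0.75), and these share the dye orientation. On array 1, 8 of the 10 genes were in the lowest 5% of ORFs, on array 2 7, on array 3 3 (FIT2, ENB1 and FET4) and on array 4 1 (FET4); the lowest 5% held 5.02% to 5.04% of tested ORFs. The other possible pairing gave means that barely differed for some of the 10. FIT2 had -1.21 on arrays 1 and 4 and -1.25 on arrays 2 and 3, and ENB1 had -1.02 and -1.03. FIT3 (-1.01 and -0.77), ARN2 (-0.81 and -0.56) and FET4 (-0.48 and -0.26) differed more. FIT1 differed most there, with -1.10 on arrays 1 and 4 and -0.35 on arrays 2 and 3.

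The count of iron genes past the test depended on which pairing was taken. Arrays 1 and 2 with arrays 3 and 4 as the cultures gave 2 of 10 opposite to SLT2, against 1.39% of tested ORFs. That pairing set the larger p for all 10, as it did for 99.7% of tested ORFs. Arrays 1 and 4 with arrays 2 and 3 as the cultures gave 9 of 10, all but ARN1, against 13.9% of tested ORFs. If the first pairing is the true one, the second averages across cultures and its spread does not measure the difference between them.

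**Figure D3:**
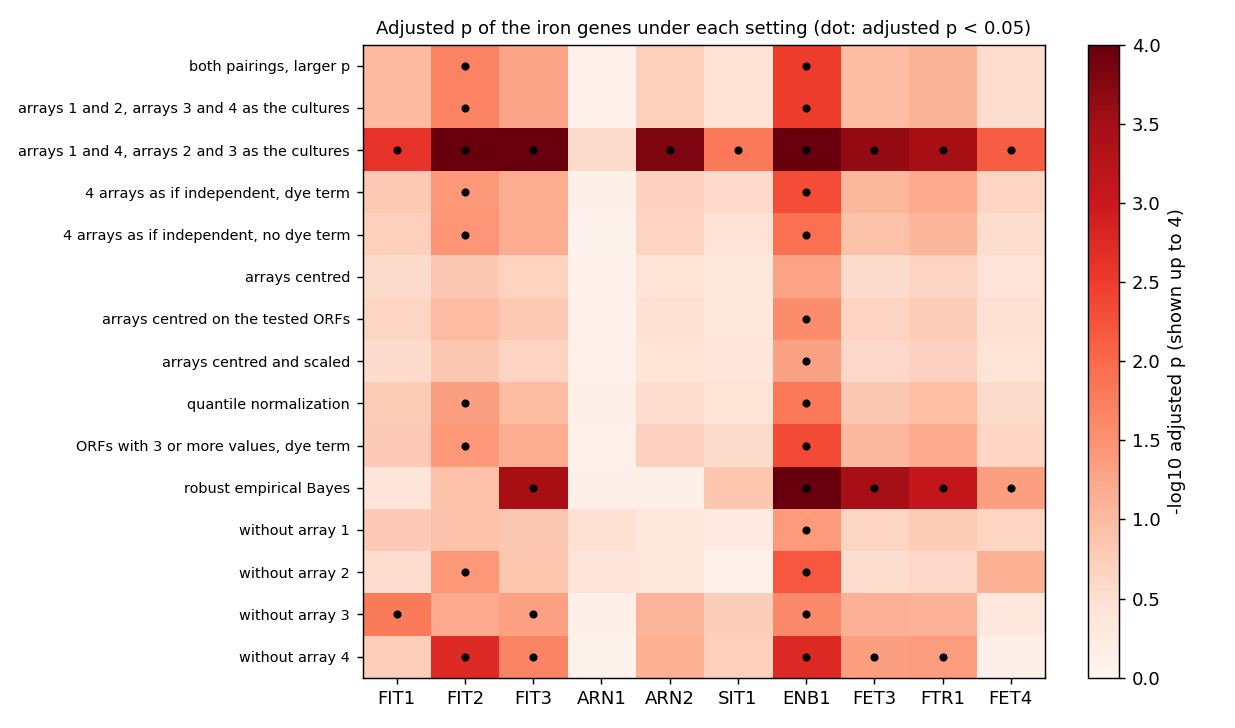
Adjusted p of each iron gene (columns) in limma under each way of pairing, scaling or leaving out arrays (rows), with darker red for a smaller p and a dot below 0.05. ENB1 has a dot in each row but the one for centred arrays and ARN1 in none.

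By dye orientation, ENB1 averaged -1.29 with treated RNA on Cy3 and -0.76 with it on Cy5. Its difference between orientations was -0.53, which 9.02% of tested ORFs matched or went below. That was larger than its difference of -0.40 between the array pairs. ARN1 averaged -0.27 with treated RNA on Cy3 and 0.51 with it on Cy5, a difference that 2.91% of tested ORFs matched or went below. Its orientations overlapped, and it differed more by array pair. FIT1 averaged -0.96 with treated RNA on Cy3 and -0.49 with it on Cy5. FIT2 (-1.37 and -1.09), FIT3 (-0.96 and -0.81) and ARN2 (-0.70 and -0.67) differed less by dye than by array pair.

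Other genes of iron supply are set against all tested ORFs, of which 1.39% passed opposite to SLT2 and 4.56% on its side. In 5 lists of 3 to 14 tested genes at most 1 gene passed in each, too few to set a list apart from those shares. Of 9 ferric reductase and haem oxygenase genes, 3 were tested, with 0 opposite to SLT2 and 1 on its side. That was HMX1, which encodes the haem oxygenase that frees iron from haem. It had 0.52, 0.76, 0.59 and 1.08 on arrays 1 to 4, so each array lay on the side of SLT2 (0.74 ± 0.25, adjusted p = 0.0107 in limma). The reductase gene FRE7 had 0.72 ± 0.84 and FRE1 -0.21 ± 0.25, neither past the test. FRE6, a vacuolar reductase gene, had 1.33, 2.02 and 1.04 on arrays 1, 2 and 3 only and was not tested. FRE2 had -0.31 on array 2 and 0.26 on array 4. FRE3 and FRE5, which flank the FIT2 and FIT3 pair, had no value on any array, and neither did FRE4 and FRE8.

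A further list of 14 genes known as Aft1 or Aft2 targets left out the reductase and haem oxygenase genes above, and 9 of the 14 were tested. In limma 0 passed on either side, and 1 had an unadjusted p under 0.05. The median of the 9 was -0.01, against -0.64 for the 10 genes and -0.03 for all tested ORFs. ISU1, an iron-sulphur cluster scaffold gene, had 0.42 ± 0.06 (adjusted p = 0.0835 in limma), VHT1, a biotin transporter gene, -0.27 ± 0.18 and ISU2 -0.15 ± 0.30. The biotin precursor transporter gene BIO5 had a value on array 1 only (-0.22). TIS11, also called CTH2, encodes a protein that speeds the decay of transcripts of iron-using proteins. Its log2 ratio was -1.44 on array 1, -0.81 on array 2, 1.53 on array 3 and 1.80 on array 4. Its pairs lay on opposite sides, so its mean of 0.27 ± 1.63 describes neither (adjusted p = 0.841 in limma), and its difference of -2.79 was larger than that of any of the 10 genes.

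Among regulators of the iron response 9 genes were tested, of which 0 passed in limma and 0 had an unadjusted p under 0.05. Their median was -0.03. AFT1 had -0.37, -0.01, 0.18 and 0.01 on arrays 1 to 4 (mean -0.05 ± 0.23). AFT2 had 0.17 ± 0.24 and CYC8 0.05 ± 0.30. GRX4, a glutaredoxin gene whose product restrains Aft1 when iron is plentiful, had -0.29 ± 0.25, and the co-repressor gene TUP1 -0.21 ± 0.73. Transcript ratios of regulators say nothing of the activity of their proteins.

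None of 4 vacuolar storage and high-iron genes passed in limma (0 of 4), while 1 had an unadjusted p under 0.05. The vacuolar iron importer gene CCC1 had -0.07 ± 0.21, TYW1 -0.19 ± 0.25, the phosphate transporter gene PHO84 -0.50 ± 0.27 and the vacuolar metal transporter gene COT1 0.25 ± 0.27. Among 14 iron-using enzymes 1 passed, opposite to SLT2, and 0 on its side. It was LEU1, the iron-sulphur enzyme gene of leucine synthesis (-0.60 ± 0.24, adjusted p = 0.0241 in limma), which missed the threshold without array 4. The biotin synthase gene BIO2 had -0.47 ± 0.34, the aconitase gene ACO1 0.54 ± 0.27 and SDH4 0.40 ± 0.27, none past the test. The list's median was -0.10.

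FET4 is known to be controlled by Rox1, a repressor in aerated cells, and by the zinc factor Zap1. Of 10 genes around this control and low-affinity metal uptake 9 were tested, of which 2 passed opposite to SLT2 and 1 on its side (1.39% and 4.56% of all tested ORFs). Opposite were the zinc transporter genes ZRT1 (-0.68 ± 0.32, adjusted p = 0.0137 in limma) and ZRT2 (-0.65 ± 0.50, adjusted p = 0.0194). The ZRT2 call ended in 8 of 16 other settings, among them leaving out array 1, 3 or 4. SMF1, a manganese transporter gene, had 2.01, 2.15, 1.97 and 1.91 on arrays 1 to 4, a large ratio that scarcely varied (2.01 ± 0.10, adjusted p = 5.48e-05). ROX1 had 0.09 ± 0.09 and ZAP1 -0.18 ± 0.48.

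Other wall mannoproteins are, like the Fit proteins, made with a glycosylphosphatidylinositol (GPI) anchor. Of 9 tested, 2 had a mean below 0, against 56.7% of all tested ORFs. On the side of SLT2 3 passed, against 4.56%, and opposite to it 1, against 1.39%, with a median of 0.34 against -0.89 for the 3 FIT genes. CWP1 (3.04 ± 0.54), SED1 (2.06 ± 0.50) and TIR2 (0.91 ± 0.17) were the 3 that passed on the side of SLT2. TIR3, a cold- and anaerobiosis-induced wall gene, had a mean opposite to SLT2 (-1.13 ± 0.56, adjusted p = 9.43e-04 in limma), and TIP1 had -0.47 ± 0.26. TIR3 had -1.58, -0.67, -1.65 and -0.62 on arrays 1 to 4. It thus followed the dyes and not the array pairs, unlike FIT2.

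**Figure D4:**
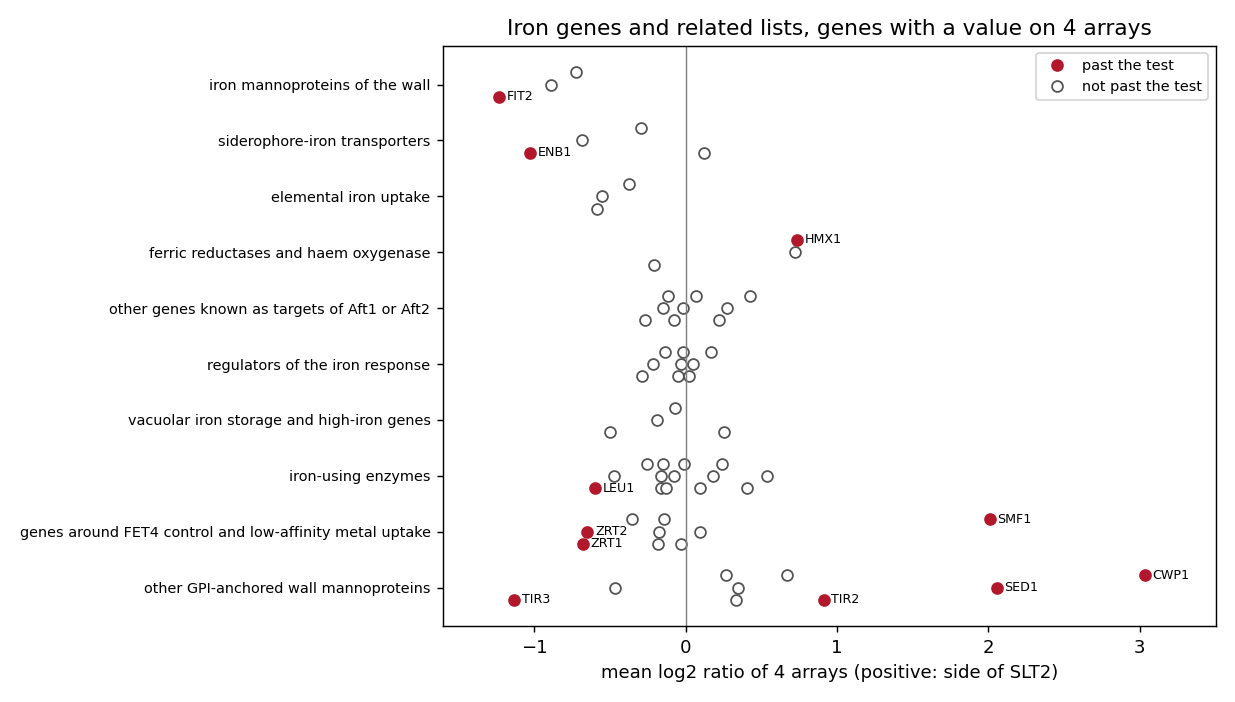
Mean log2 ratio over 4 arrays (x axis; positive values lie on the side of SLT2) of the tested genes in each list (rows), filled and named where past the test in limma. FIT2 and ENB1 lie opposite to SLT2 and HMX1 and SMF1 on its side.

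Of the genes next to FIT2 and ENB1, FIT3 and CSS3 had values. Beside ENB1, CSS3 lay on the side of SLT2 with 0.77, 1.03, 0.87 and 0.95 on arrays 1 to 4 (0.90 ± 0.11, adjusted p = 0.00318 in limma). IMA2 and HXT11, on its other side, had no value on any array, and YOL159C-A and YOR381W-A had no row under those names. Probe sequences were not used here, so signal shared between related genes such as the ARN family was not tested.

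The ORF whose 4 values came nearest to the average of the 10 genes (-1.20, -0.76, -0.34 and -0.19 on arrays 1 to 4) was ASN1, an asparagine synthetase gene, at a Euclidean distance of 0.249 log2 units. It had -1.03, -0.74, -0.50 and -0.27 on arrays 1 to 4, the same order of arrays as FET3, FTR1, FIT2, SIT1 and ARN1. ASN1 passed the test opposite to SLT2 (-0.63 ± 0.32, adjusted p = 0.0454 in limma), a call that ended in 8 of 16 other settings, among them leaving out array 1, 2 or 3. The next 4 were YAL004W, the amino acid permease gene TAT1, the RNA polymerase I subunit gene RPA135 and the fatty acid activating enzyme gene FAA4, with means from -0.59 to -0.46, none past the test.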

How the data were processed

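The authors deposited 1 table of log ratios of the 2 channels, taken here as log2 values; the sources used here give neither its base and numerator nor its background correction, normalization and filters. Deposited array medians ran from -0.05 to 0.03, and arrays of opposite dye correlated below 0 (r from -0.54 to -0.09), so the dye swap was still in the values. Each array was turned according to its labelled dyes, and the common sign was set so that SLT2 is positive. Of 6209 rows 2 were controls and were left out; 5654 of 6207 ORFs took names from the RefSeq table of assembly R64. Empty cells made up 16.0% to 21.3% of ORFs per array.

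limma 3.58.1 (lmFit, eBayes; R 4.3.3) was run on 4543 ORFs with 4 values. Dye-swapped arrays were averaged into 2 cultures in both possible pairings, the larger p was kept, and Benjamini-Hochberg adjustment ran over all tested ORFs. The code was tested on simulated data. Other pairing, scaling, filters, thresholds, robust empirical Bayes and leaving out each array were tried. The main p-values measure the spread between 2 cultures only where the pairing that set them is the true one, which the labels do not say. Where each array counted as its own sample, as with an array left out, they measure the spread between arrays. In every fit limma moderated a gene's variance with that of all tested ORFs, so no p-value rests on a gene's own spread alone. The genes and lists were chosen with earlier results of these data known. Named were the 10 genes, SLT2, each list's 2 highest and 2 lowest measured genes and any past the test, the 2 nearest genes on each side of a gene past the test and the 5 ORFs of most similar profile; FRE4, FRE7, FRE8, ISU2, AFT1, ZAP1, RLI1, HAC1 and SIR4 fall outside this rule and were named after their values were seen. No sequences are shown.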

Additional observations from a re-analysis of the deposited data

Results flagged for a closer look

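For RLI1, an iron-sulphur protein gene of ribosome recycling in the list of iron-using proteins, array 3 stood far from the others, with -0.42 against -0.10 to -0.06 on arrays 1, 2 and 4. It was the single such case among 68 genes checked, and about 1 in 20 sets of 4 values would be marked by chance. None of the 10 iron genes was marked.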

How the results depend on the processing

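Across 16 alternatives the fitted mean kept its sign for every iron gene but ARN1. The dye-balanced mean of ARN1 turned to -0.13 without array 3 and -0.12 without array 4 and ranged up to 0.38 without array 1. On the side of SLT2 0 of the 10 passed in any alternative. The count opposite to SLT2, 2 in the main setting, was 9 under the other pairing, 0 after median centring, 1 after centring plus scaling, 5 with robust empirical Bayes, 1 at a threshold of 0.01 and 5 at 0.10. It was 1 with arrays centred on the tested ORFs alone, an alternative chosen after seeing the data. It ran from 1 (without array 1) to 5 (without array 4) when an array was left out; there each remaining array counted as its own sample, with dye orientation in the fit. With robust empirical Bayes FIT2 was lost (adjusted p = 0.121) and FIT3, FET3, FTR1 and FET4 were gained. Among all ORFs the counts opposite to SLT2 and on its side, 63 and 207, were 631 and 598 with the other pairing, 193 and 319 when each of the 4 arrays counted as its own sample beside a dye effect, 189 and 338 when that fit also took ORFs with 3 values, 225 and 358 with robust empirical Bayes, 8 and 123 after median centring, 10 and 118 after centring plus scaling, and 13 and 120 at a threshold of 0.01. The count opposite was 153 at 0.10, 27 with arrays centred on the tested ORFs, and 39 to 60 with an array left out, where that on the side of SLT2 was 151 to 196. Of 12 other named genes past the test, SLT2, SMF1, CWP1, SED1, TIR2, TIR3 and CSS3 passed in all 16 alternatives, while HMX1 and ZRT1 missed in 3, LEU1 in 4 and ZRT2 and ASN1 in 8 each. The cause of these shifts was not tested. Either pairing alone and the threshold of 0.10 could not end a call of the main test, which kept the larger p of both pairings. Passing in those alternatives is thus no added support.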

Other observations

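The split between array pairs seen for the iron genes was larger for some other ORFs, named here after their values were seen. HAC1, which encodes the transcription factor of the unfolded protein response, had -3.63, -1.06, 2.11 and 1.87 on arrays 1 to 4. SIR4, a silencing gene, had -2.41 and -1.33 on the first pair and 1.43 and 0.89 on the second. The Aft target TIS11 was among the 20 ORFs with the lowest difference, and 0 of the 10 iron genes were among the lowest 50. In these ORFs the pairs lay on opposite sides, whereas FIT1, FIT2, FIT3, ENB1, FET3, FTR1 and FET4 kept 1 sign on all 4 arrays.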
